A study of Caenorhabditis elegans with 12 samples.

Results

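The nuclear RNA interference (RNAi) genes nrde-1, nrde-2, nrde-3, nrde-4 and hrde-1 were followed in late embryos of Caenorhabditis elegans, a nematode worm. They were taken from a table of normalised read counts by the gene identifiers that carry these symbols in the WBcel235 annotation. They make up 5 of the 46904 genes in the table. All 5 had a normalised count of at least 10 in at least 2 libraries, the filter for testing, and were among the 14640 genes tested.

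In nuclear RNAi, small interfering RNAs carried by an Argonaute protein pair with nascent transcripts and lead to methylation of histone H3 at lysine 9 (H3K9) and to reduced transcription of the target gene. NRDE-3 is the Argonaute of this pathway in somatic cells and HRDE-1 is its counterpart in the germline, where it also carries silencing across generations. NRDE-2, a conserved protein, is recruited by the Argonaute to the target pre-mRNA. NRDE-1 associates with the pre-mRNA and with the chromatin of the target, and NRDE-4 is required for that association. HPL-2, a homolog of heterochromatin protein HP1, and LIN-61, a protein with MBT repeats, bind methylated H3K9, and MET-2, SET-25 and SET-32 are histone methyltransferases that have been tied to H3K9.

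Libraries were made from N2, the wild-type strain, and from mutant strains labelled hpl-2, hpl-2I158A and lin-61, from the lin-61 hpl-2 strain (the double mutant) and from a strain labelled met-2 set-25 set-32 (the triple mutant), with 2 libraries for each of the 6 genotypes. Apart from the I158A substitution in a strain name, no allele is given in the sources used here, nor is the age of the embryos in hours. The RNA came from whole embryos, so fewer cells of a type and less RNA per cell cannot be told apart. Nothing states that the libraries of a genotype came from separate cultures, so the p-values measure only the spread between these libraries, which may be technical spread.

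Reads assigned to genes numbered 1593546 to 2533102 per library, except triple mutant replicate 2 with 10243076. That library also stood apart in its share of reads on protein-coding genes, 91.8% against 80.7% to 84.1% in the 11 other libraries. Counts of called members are therefore given for all 12 libraries and again for the 11 libraries without it, and a test given only once is for 12. Over the 11 libraries the triple mutant has a single library, so its comparisons there hold no spread between its own libraries. The mutated genes followed the labels: the hpl-2 gene had normalised counts of 304 and 242 in wild type, 36.2 and 34.5 in the hpl-2 strain, 30.9 and 49.8 in the double mutant, and 283 and 244 in hpl-2I158A, where the gene carries a point mutation. The lin-61 gene had 91.9 and 41.4 in N2 and 5.45 to 13.6 in the 4 libraries labelled lin-61, and met-2 had 266 and 267 in wild type and 44.3 and 77.0 in the triple mutant. In that strain set-25 stood at 159 and 99.7 against 417 and 406 in N2, and set-32, a gene with few reads, at 6.93 and 2.89 against 14 and 15.8. All 16 late embryo tissue markers had reads in every library, and the 10 adult and larval markers together came to at most 54.5 normalised counts in a library.

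Every member is a protein-coding gene. On WBcel235, nrde-1 lies on the plus strand of chromosome III from 3713463 to 3718750, and hrde-1 lies on the minus strand of the same chromosome from 4172337 to 4176159. The nrde-2 gene lies on the minus strand of chromosome II from 10242596 to 10247638, nrde-3 on the plus strand of chromosome X from 372235 to 376900, and nrde-4 on the minus strand of chromosome IV from 7646320 to 7654262. In nrde-1, 3.71% of the exonic bases lie opposite exons of C14B1.8, and in nrde-4, 3.59% lie opposite exons of cima-1. The authors' strand setting for counting is not stated in these sources, so reads from these short overlaps cannot be assigned with certainty. The exons of the other 3 members overlap no other gene.

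The Argonaute genes had the highest levels of the pathway in wild-type embryos. Per kilobase of exon, the normalised count in N2 was 189 ± 14.4 (SD, n = 2) for nrde-3 and 135 ± 5.45 (n = 2) for hrde-1. The remaining members lay close together, with per-kilobase levels of 69.3 ± 23.2 (n = 2) for nrde-1, 68.5 ± 3.83 (n = 2) for nrde-4 and 68.3 ± 7.26 (n = 2) for nrde-2. The least covered member in any library was nrde-4 with 111 reads, in hpl-2I158A replicate 1, and hrde-1 and nrde-3 had at least 297 and 386 reads in every library.

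**Figure D1:**
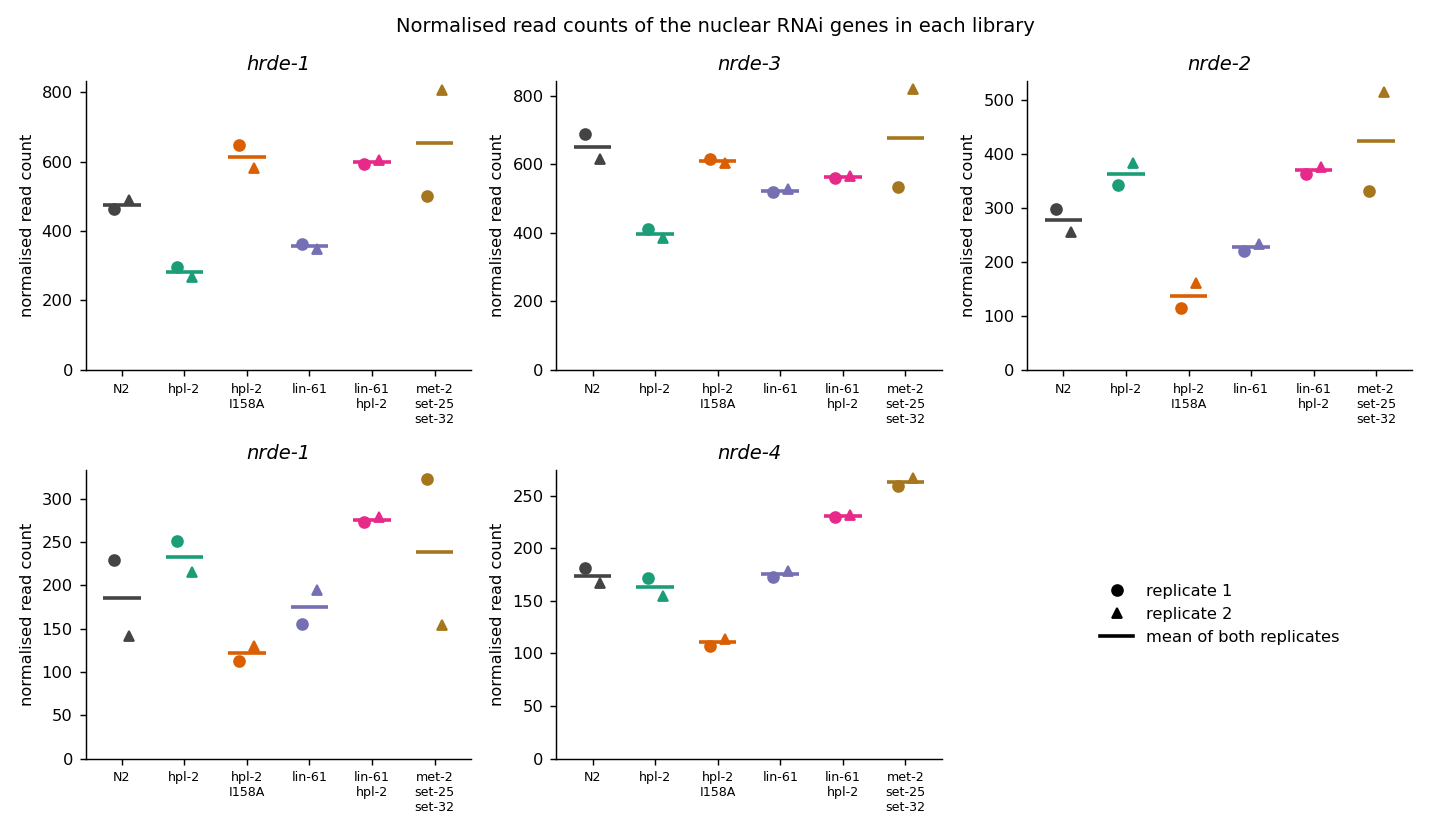
Normalised read count (y axis, from 0) of each member in each of the 12 libraries, by genotype (x axis), with circles for replicate 1, triangles for replicate 2 and a bar at their mean. The Argonaute genes hrde-1 and nrde-3 have their lowest counts in the hpl-2 libraries (268 to 296 and 384 to 410.2), and nrde-1, nrde-2 and nrde-4 have their lowest in the hpl-2I158A libraries.

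The germline Argonaute gene hrde-1 was low in the hpl-2 and lin-61 libraries and high in the other mutants. Its normalised counts were 463 and 489.9 for N2, 296 and 268 for the hpl-2 strain, 646 and 581 in hpl-2I158A, 364 and 349 in lin-61, 592 and 604 in the double mutant, and 500.3 and 805 in the triple mutant. Both hpl-2 libraries lay below all others, the lin-61 libraries came next, and every mutant library lay outside the range of the N2 pair. A moderated F test for any difference between the 6 genotypes (limma, Benjamini-Hochberg adjusted over all 14640 genes) gave an adjusted p of 0.0292 for hrde-1, 0.0195 for nrde-2 and 0.0229 for nrde-4, and 0.157 for nrde-3 and 0.199 for nrde-1. Thus 3 of the 5 members were called, while 6.92% of all tested genes were; with 11 libraries all 5 members and 40.2% of tested genes were called. The 12-library calls were all lost without either library of hpl-2, hpl-2I158A, lin-61 or the double mutant, while some were kept without either N2 library. Each of these fits leaves 1 library in a genotype, and the share of all tested genes called was not counted for them.

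In hpl-2 embryos hrde-1 was at 59.3% and nrde-3 at 61.1% of the wild-type level by the fitted fold change, but the test over 12 libraries did not call them. The log2 fold change from N2 was -0.75 (SE 0.22, limma adjusted p = 0.149, 2 libraries a group) for hrde-1 and -0.71 (SE 0.21, adjusted p = 0.146) for nrde-3. The nrde-3 counts were 687 and 617 for N2 and 410.2 and 384 for the hpl-2 strain, and neither gene's groups overlapped. The share of all tested genes without such overlap was not counted, in this comparison or the others. No member was called by limma here (0 of 5, with 2 at an unadjusted p under 0.05), nor by edgeR or DESeq2, against 0.608% of all tested genes called by limma. Over 11 libraries both genes fell, each with a limma adjusted p of 0.00128, beside 14.4% of all genes called. The same 2 calls came when the other triple mutant library was left out instead, where the share of all tested genes was not counted. The authors' deposited table gives log2 fold changes of -0.71 with an adjusted p of 0.0406 for nrde-3 and -0.76 with 0.0434 for hrde-1.

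The remaining members lay near or above their wild-type level. In hpl-2 against N2 the log2 fold change was 0.39 for nrde-2, 0.37 for nrde-1 and -0.10 for nrde-4, with limma adjusted p of 0.502, 0.656 and 0.857. The nrde-2 counts were 298 and 256 for N2 and 342 and 383 for the hpl-2 strain. These did not overlap, again with no share of all tested genes counted, while the groups overlapped for nrde-1 and nrde-4. Scaling the libraries to protein-coding genes alone moves the median of all genes in hpl-2 up by 0.225 relative to N2 and in lin-61 by 0.133, and it turns the small nrde-4 difference to 0.13. In hpl-2 against N2 it moves nrde-2 to 0.62, nrde-1 to 0.60 and nrde-3 to -0.48 (limma adjusted p = 0.223, 0.442 and 0.229). With TMM scaling nrde-3 stood at -0.66 (limma adjusted p = 0.319).

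**Figure D2:**
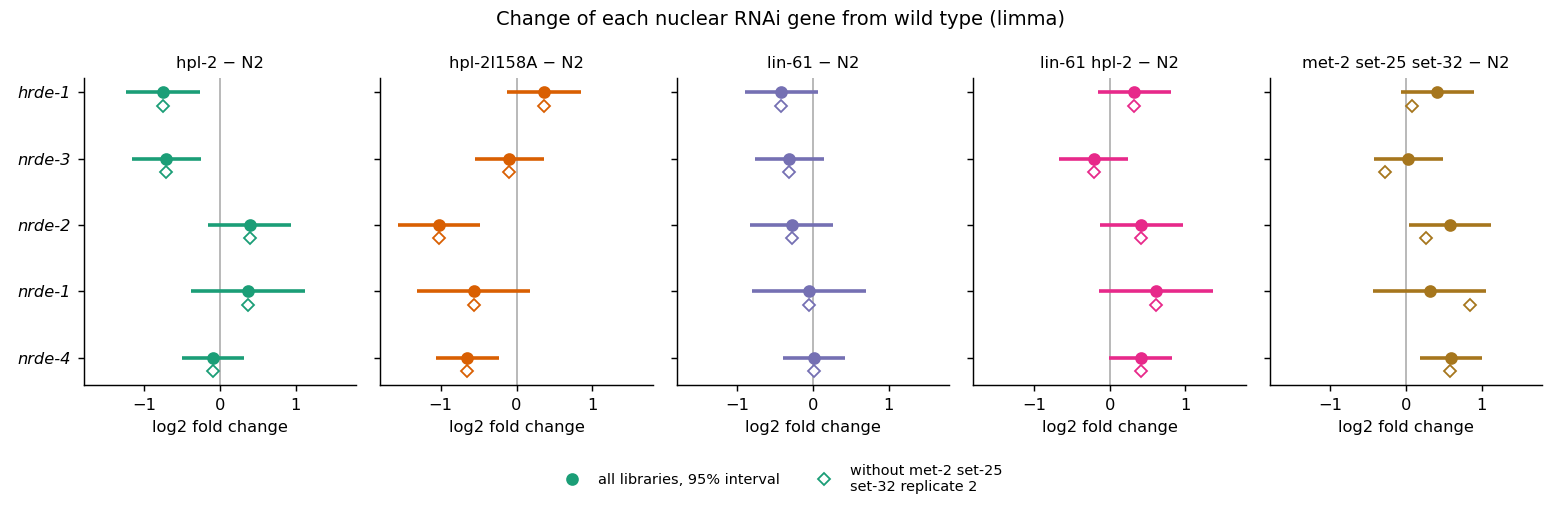
Log2 fold change from N2 (x axis) of each member (y axis) in the 5 mutant strains, with filled circles and 95% intervals from limma over 12 libraries and open diamonds for the estimate over 11 libraries. The hrde-1 and nrde-3 intervals in hpl-2 and the nrde-2 and nrde-4 intervals in hpl-2I158A lie below 0 before adjustment, those of nrde-2 and nrde-4 in the triple mutant lie above 0, and all panels share the same 2 N2 libraries.

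In hpl-2I158A embryos the genes that act after the Argonautes were low. The nrde-2 gene had 115 and 160.0 normalised counts against 298 and 256 in N2, so both mutant libraries lay below both wild-type ones. It fell 2.03-fold (log2 fold change -1.02, SE 0.25, limma adjusted p = 0.0470, 2 libraries a group) and was the only member called, beside 4.0% of all tested genes. The deposited table of the authors gives it an adjusted p of 0.00652. The nrde-4 counts were 107 and 114 against 181 and 167, a log2 fold change of -0.65 (SE 0.19, limma adjusted p = 0.0817). The nrde-1 counts were 113 and 130.4 against 229 and 141, a log2 fold change of -0.57 (SE 0.34, limma adjusted p = 0.391). All 3 genes had their lowest counts of the study in this strain, in both of its libraries.

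Neither Argonaute gene was called over 12 libraries. In hpl-2I158A the nrde-3 counts of 615 and 604 lay just under the 687 and 617 of N2 (log2 fold change -0.09, 95% interval -0.55 to 0.36, limma adjusted p = 0.844). The hrde-1 counts of 646 and 581 lay above the 463 and 489.9 of N2 (log2 fold change 0.36, SE 0.22, limma adjusted p = 0.397). Over 11 libraries nrde-2 and nrde-4 fell (limma adjusted p = 0.000569 and 0.00671) and hrde-1 rose (0.0454), with 22.0% of all tested genes called. The nrde-2 call over 12 libraries was lost when any single library other than those of the triple mutant was left out, with adjusted p up to 0.348, with no filter (0.0904), with TMM scaling (0.0899) and with edgeR (0.0650). Leaving out either triple mutant library gave 3 called members, with the share of all tested genes counted only without replicate 2 (22.0%).

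Set directly against each other, the hpl-2 and hpl-2I158A embryos differed by the test for hrde-1 and nrde-2, in opposite directions. In hpl-2I158A, hrde-1 was 2.17-fold higher (log2 fold change 1.12, SE 0.22, limma adjusted p = 0.0197) and nrde-2 was 2.66-fold lower (log2 fold change -1.41, SE 0.25, limma adjusted p = 0.0144) than in hpl-2. These were 2 of 5 members, against 7.84% of all tested genes. The nrde-3 difference was 0.62 (limma adjusted p = 0.0914), and those of nrde-4 and nrde-1 were -0.55 (0.0929) and -0.93 (0.114), all on the log2 scale. The libraries of both strains did not overlap for any of the 5 genes. How many of all tested genes also had no overlap was not counted. Over 11 libraries all 5 members were called, with limma adjusted p from 2.47e-05 for hrde-1 to 0.0127 for nrde-4, beside 29.9% of all tested genes; without single libraries the 12-library adjusted p reached 0.162 for hrde-1 and 0.145 for nrde-2.

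A ratio of 2 members within a library needs no scaling between libraries. The per-kilobase ratio of hrde-1 to nrde-2 was 1.78 and 2.19 in N2, 1.90 and 1.71 in lin-61, 1.87 and 1.84 in the double mutant, and 1.73 and 1.79 in the triple mutant. It was 0.993 and 0.802 in hpl-2 and 6.46 and 4.16 in hpl-2I158A. The 8 libraries of the other 4 genotypes thus stayed between 1.71 and 2.19, with hpl-2 below and hpl-2I158A above that range. Both Argonaute genes together held 45.2% and 44.3% of the summed per-kilobase level of the 5 members in hpl-2, 58.9% and 63.6% in N2, and 76.2% and 71.8% in hpl-2I158A. This share was 58.4% and 55.7% in lin-61, 53.9% and 53.8% in the double mutant, and 49.3% and 61.7% in the triple mutant. The ratio of hrde-1 to nrde-3 was 0.655 and 0.773 in N2, and stood at 1.02 and 0.935 in hpl-2I158A and at 1.03 and 1.04 in the double mutant. It was 0.910 and 0.954 in the triple mutant, 0.702 and 0.679 in hpl-2, and 0.683 and 0.643 in lin-61. These ratios were chosen after the values had been seen and are given as a description without a test.

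**Figure D3:**
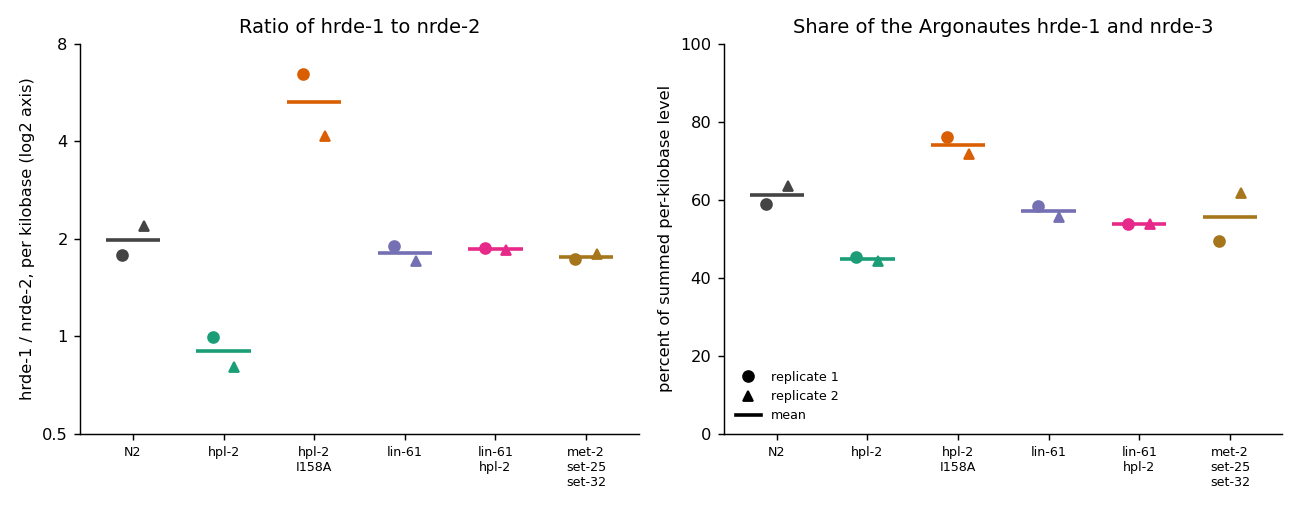
Left, ratio of the per-kilobase levels of hrde-1 and nrde-2 in each library on a log2 axis; right, percent of the summed per-kilobase level of the 5 members that hrde-1 and nrde-3 hold, on an axis from 0 to 100. Circles are replicate 1, triangles replicate 2 and bars their mean; hpl-2 lies lowest and hpl-2I158A highest in both panels.

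Germline and maternal genes were also high in hpl-2I158A. HRDE-1 is a germline protein, and the summed normalised count of 21 germline and maternal marker genes was 9046 and 9168 in hpl-2I158A, 3425 and 5301 for N2, and 3977 and 3598 for the hpl-2 strain. All 21 markers had reads in every library, so none of the defining markers was at 0. In hpl-2I158A against N2, 8 of the 21 markers rose and none fell by limma over 12 libraries, beside 4.0% of all tested genes called in either direction. Their median log2 fold change was 1.11, against 0.03 for all tested genes. Against hpl-2, 15 of 21 rose and none fell, beside 7.84%. Over 11 libraries 15 rose against N2 and 19 against hpl-2, and none fell, beside 22.0% and 29.9% of all tested genes. In hpl-2 against N2 no marker was called over 12 libraries, beside 0.608%, and glh-2 and nos-2 fell over 11, beside 14.4%. Both sums for hpl-2 lay within the range of the N2 pair. For lin-61, where hrde-1 lay below N2, the marker sums of 5561 and 5534 lay above both N2 libraries. The part of germline RNA in the levels of hrde-1 and the other members was not tested. Among the 16 late embryo tissue markers, 3 were called in hpl-2I158A against N2 over 12 libraries, beside 4.0% of all tested genes. The neuronal genes ric-4, unc-104 and unc-13 fell and none rose. Over 11 the same 3 fell and the cuticle and precuticle genes dpy-7, lpr-3, noah-1 and noah-2 rose, beside 22.0%. The median log2 fold change of the 16 genes was 0.38, against 0.03 for all tested genes. The summed count of the 16 was 11546 and 10872 in hpl-2I158A, 7958 and 10772 for N2, and 9819 and 9750.3 for the hpl-2 strain; the part of these cells in the results was not tested.

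With the lin-61 mutation alone no member was called. The log2 fold changes from N2 were -0.42 for hrde-1 (95% interval -0.90 to 0.07), -0.32 for nrde-3, -0.28 for nrde-2, -0.05 for nrde-1 and 0.01 for nrde-4, and limma called 0 of 5 over 12 libraries, with 0 at an unadjusted p under 0.05, and DESeq2 and edgeR called 0 as well. In the same comparison 0.0956% of all tested genes were called, and over 11 libraries still 0 members with 6.19% of genes. The sign of the nrde-1 and nrde-4 differences depended on which library was left out, and that of nrde-1 on the scaling.

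In the double mutant, where hpl-2 and lin-61 transcripts were both low, both Argonaute genes and nrde-4 lay above their level in hpl-2. The log2 fold change was 0.51 for nrde-3 (limma adjusted p = 0.227 over 12 libraries, 0.00888 over 11). It was 0.50 for nrde-4 (0.191 and 0.0301), 0.24 for nrde-1 (0.742 and 0.429) and 0.03 for nrde-2 (0.966 and 0.922). The hrde-1 counts were 592 and 604, above both N2 libraries and 2.12-fold above hpl-2 (limma adjusted p = 0.0703 over 12 libraries, 0.000176 over 11, with 0.13% and 19.5% of all tested genes called). The effect of the hpl-2 mutation on hrde-1 was -0.75 on the log2 scale in a wild-type background and 0.75 in a lin-61 background. The interaction, which is the difference between these effects, was 1.50 (SE 0.31, 95% interval 0.81 to 2.19, limma adjusted p = 0.0432). No other member's interaction was called, beside 1.73% of all tested genes. For nrde-3 the effects were -0.71 and 0.11, with an interaction of 0.82 (SE 0.29, limma adjusted p = 0.167). Over 11 libraries both interactions were called, with adjusted p of 7.56e-05 for hrde-1 and 0.00324 for nrde-3, beside 20.2% of tested genes. The hrde-1 interaction was no longer called by limma over 12 libraries when any single library other than those of the triple mutant was left out, with adjusted p up to 0.227, nor with no filter, TMM scaling, scaling to coding genes, a replicate block (0.0608) or edgeR (0.0602), while DESeq2 called it (0.00532).

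**Figure D4:**
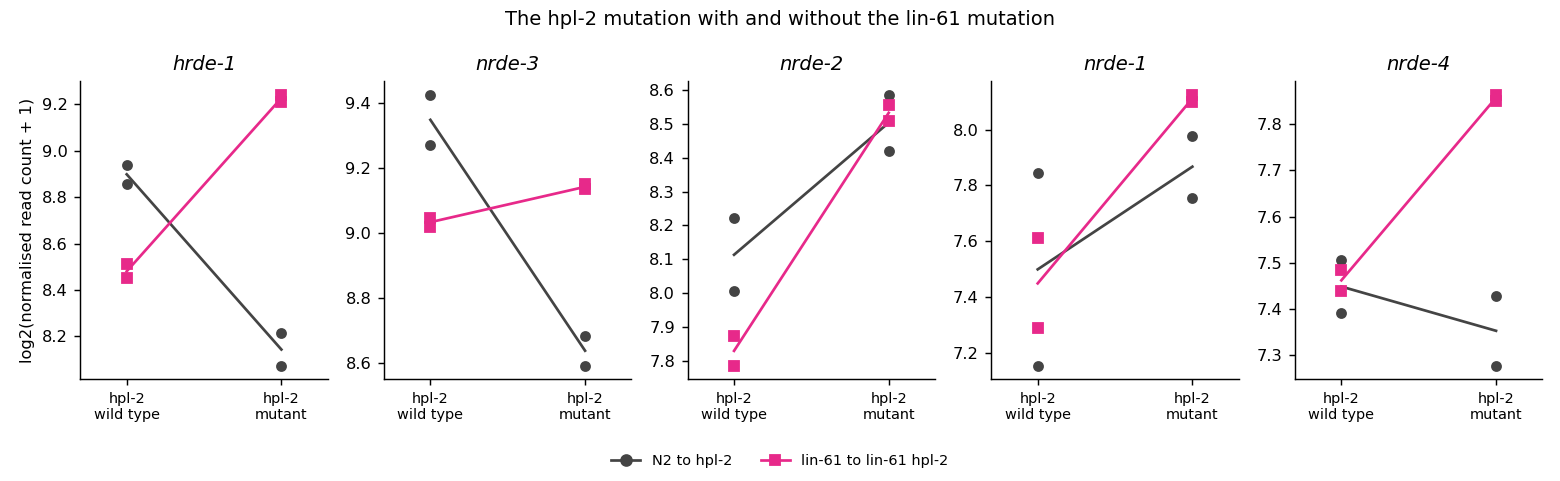
Log2(normalised read count + 1) of each member with hpl-2 wild type (left of each panel) and mutant (right), in a lin-61 wild-type background (dark circles, N2 and hpl-2) and in a lin-61 background (pink squares, lin-61 and lin-61 hpl-2); lines join the means of 2 libraries and each panel has its own y axis. The slopes are opposite for hrde-1, at -0.75 and 0.75, and are -0.71 and 0.11 for nrde-3.

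Every member had its highest mean count in the double or the triple mutant. For hrde-1 and nrde-3 this rested on triple mutant replicate 2, the library that stood apart. Triple mutant replicate 1 had 500.3 for hrde-1, below the hpl-2I158A mean of 614. It had 535 for nrde-3, below the N2 mean of 652. For nrde-1, nrde-2 and nrde-4 both strains ranked above the rest, in part by little. The nrde-2 mean was 369 in the double mutant and 363 in hpl-2, and the nrde-1 mean was 239 in the triple mutant and 233 in hpl-2. Triple mutant replicate 1 alone had 331 for nrde-2, below the hpl-2 mean. The nrde-4 counts were 229.8 and 232 in the double mutant and 259 and 267 in the triple mutant, and these 4 libraries lay above all 8 others. Against N2 the log2 fold change was 0.41 (limma adjusted p = 0.526) for the double mutant and 0.59 (SE 0.19, limma adjusted p = 0.214) for the triple mutant. The nrde-1 counts were 273 and 278 in the double mutant, both above N2, but 323 and 154 in the triple mutant, where the replicates lay on either side of N2 replicate 1. No member was called for the double mutant against N2 by limma, edgeR or DESeq2 (0 of 5, with 0 at an unadjusted p under 0.05), beside 0.273% of all tested genes, nor for the triple mutant against N2 (0 of 5, with 2 at an unadjusted p under 0.05), beside 0.328%. Over 11 libraries the count was again 0 for the double mutant, with 5.01% of genes called. Without triple mutant replicate 1 that strain has a single library. Its log2 fold change from N2 was then 0.90 for nrde-2, 0.33 for nrde-3 and -0.22 for nrde-1. The remaining library had 805 normalised counts for hrde-1, against 463 and 489.9 in N2. For nrde-4 it had 267, against 181 and 167 in N2.

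The replicates of the triple mutant lay far apart for each member but nrde-4. The library that stood apart was the higher one for nrde-3 (535 and 821), hrde-1 (500.3 and 805) and nrde-2 (331 and 514) and the lower one for nrde-1. With that library left out, the log2 fold change from N2 went from 0.41 to 0.07 for hrde-1, from 0.03 to -0.28 for nrde-3, from 0.58 to 0.26 for nrde-2 and from 0.31 to 0.84 for nrde-1. The strain's values for these 4 genes rest on which library is read, while its nrde-4 value moved only from 0.59 to 0.57.

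The low nrde-2 and nrde-4 levels of hpl-2I158A also stood out against the double and the triple mutant. In the double mutant against hpl-2I158A, nrde-2 rose 2.71-fold (log2 fold change 1.44, SE 0.25, limma adjusted p = 0.00807) and nrde-4 rose 2.08-fold (1.06, SE 0.19, adjusted p = 0.00900), beside 8.03% of all tested genes. Without single libraries these adjusted p reached 0.101 for each. In the triple mutant against hpl-2I158A, nrde-2 was 3.03-fold higher (log2 fold change 1.60, SE 0.25, limma adjusted p = 0.00311) and nrde-4 2.37-fold higher (1.24, SE 0.19, adjusted p = 0.00270), beside 11.1% of all tested genes. These triple mutant calls were kept in each fit that left out 1 of the 12 libraries, with adjusted p up to 0.0496 and 0.0428, though weighting the libraries by quality ended the nrde-4 call (0.0717). In the triple mutant against hpl-2, hrde-1 rose (log2 fold change 1.17, limma adjusted p = 0.0302), beside 2.5% of all tested genes, with adjusted p up to 0.303 when 1 library was left out. Over 11 libraries nrde-1, nrde-2 and nrde-4 were all higher in both strains than in hpl-2I158A, beside 28.3% of tested genes for the double and 23.8% for the triple mutant, and hrde-1 and nrde-4 were higher in the triple mutant than in hpl-2, beside 6.91%. Over all 15 pairs of genotypes, 8 of 75 member differences were called over 12 libraries and 26 over 11, beside 2.49% and 12.7% of the differences of all tested genes.

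In order of mean level, nrde-1, nrde-2 and nrde-4 started with hpl-2I158A, and hrde-1 and nrde-3 with hpl-2, followed by lin-61. No pair of neighbours in any member's order was called different by limma over 12 libraries. Over 11 libraries the step from hpl-2I158A to the next genotype was called for nrde-2 (to lin-61, adjusted p = 0.00845, beside 14.8% of all tested genes) and for nrde-4 (to hpl-2, adjusted p = 0.0127).

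Across the 11 libraries, whose points share genotypes in pairs and 1 scaling, the correlations of the members followed those same sets. They come from the same values as the order of levels and are no separate support for it. Pearson's r of log2 levels was 0.878 between nrde-1 and nrde-2, 0.881 between nrde-1 and nrde-4, 0.804 between nrde-2 and nrde-4, and 0.797 between hrde-1 and nrde-3, and it lay between -0.446 and -0.0211 for pairs from different sets. With the 12th library the first and second went to 0.660 and 0.684, and the pairs of nrde-4 with nrde-3 and with hrde-1, from different sets, turned positive at 0.192 and 0.199. Among 11449 other coding genes tested, the level most like that of nrde-2 was that of ric-4, a homolog of the synaptic protein SNAP-25 (r = 0.977 over 11 libraries, 0.973 over 12). Most like hrde-1 was dkc-1, the homolog of dyskerin (0.971 and 0.929), followed by tac-1 (0.970 and 0.759) and lin-53 (0.965 and 0.956). Most like nrde-3 were top-2, a DNA topoisomerase (0.970 and 0.952), adh-5 (0.965 and 0.789) and mcm-2, a subunit of the replicative helicase (0.964 and 0.894). For nrde-4 they were sql-1 (0.969 and 0.974), F42A9.9 (0.968 and 0.114) and ZC262.2 (0.968 and 0.921). For nrde-1 they were apb-3 (0.971 and 0.926), K07F5.14 (0.967 and 0.742) and F44D12.2 (0.966 and 0.924), and for nrde-2 the next were str-118 (0.965 and 0.462) and Y42G9A.3 (0.962 and 0.906). These are descriptions of 11 libraries, and the F42A9.9 and str-118 values rest on leaving out the 12th.

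The members were also set against genes of like length and against their neighbours. In hpl-2I158A against N2, the median log2 fold change of coding genes spanning 4945 to 7907 bases, the class of nrde-1 and nrde-2, was -0.04, and it was -0.10 for longer genes, the class of nrde-4, against log2 fold changes of -0.57, -1.02 and -0.65 of these members. The class of nrde-3 and hrde-1, spanning 3521 to 4945 bases, had a median of -0.02. The members that were low in hpl-2I158A each have a coding neighbour on the same strand within 150 bases, as 2794 of 19973 coding genes do: alkb-8 at 114 bases from nrde-1, mrps-14 at 105 from nrde-2 and hmg-5 at 100 from nrde-4. In hpl-2I158A against N2 the neighbours had log2 fold changes of 0.12, 0.61 and -0.12, with limma adjusted p of 0.845, 0.189 and 0.843 over 12 libraries, and mrps-14 was called higher over 11 (0.0436). The neighbours were looked at after the members' values had been seen.

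The wider small RNA machinery and genes linked to it were read from lists of 61 further genes, of which 58 matched the table and 53 were tested. The lists include 6 histone writers and readers, among them the mutated genes hpl-2, lin-61, met-2, set-25 and set-32. They also include 3 reported nuclear RNAi targets. In hpl-2 against N2, 2 of the 53 fell over 12 libraries, hpl-2 itself and ergo-1, and 1 rose, beside 0.608% of all tested genes called. ERGO-1 is the Argonaute of a class of primary small RNAs whose secondary products NRDE-3 binds, and its normalised count fell from 993 ± 40.1 to 493 ± 13.8 (n = 2 each, log2 fold change -1.01, SE 0.17, limma adjusted p = 0.0365). The gene that rose was C38D9.2, a reported nuclear RNAi target, from 12.9 ± 0.667 to 419.7 ± 16.1 (n = 2 each, adjusted p = 2.36e-07), and it rose in every mutant strain. The other tested gene of that list, E01G4.5, had 28.5 and 40.7 normalised counts in the hpl-2 strain against 93.5 and 70.7 for N2 (log2 fold change -1.23, SE 0.29, limma adjusted p = 0.0941 over 12 libraries and 0.00393 over 11). The median log2 fold change of the 53 genes was -0.30, against 0.03 over all tested genes. Over 11 libraries 3 rose and 11 fell, beside 14.4% of all tested genes.

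In hpl-2I158A against N2, 5 of the 53 fell and 2 rose over 12 libraries, beside 4.0% of all tested genes. Dicer, encoded by dcr-1, cuts double-stranded RNA and fell from 352 ± 67.7 to 117 ± 16.5 (n = 2 each, log2 fold change -1.58, SE 0.28, limma adjusted p = 0.0162). The RNA-dependent RNA polymerase gene ego-1 fell from 67.9 ± 5.68 to 16.4 ± 2.75 (log2 fold change -1.99, SE 0.38, adjusted p = 0.0222). The gene rde-1, whose Argonaute starts the response to foreign double-stranded RNA, fell from 83.4 ± 23.1 to 22.7 ± 3.30 (log2 fold change -1.81, SE 0.35, adjusted p = 0.0227). The others were met-2 and the Argonaute gene sago-2, which fell, and C38D9.2 and the Argonaute gene ppw-1, which rose. The median over the 53 genes was 0.05 and 0.03 over all tested genes. Over 11 libraries 7 rose and 7 fell, beside 22.0% of all tested genes.

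**Figure D5:**
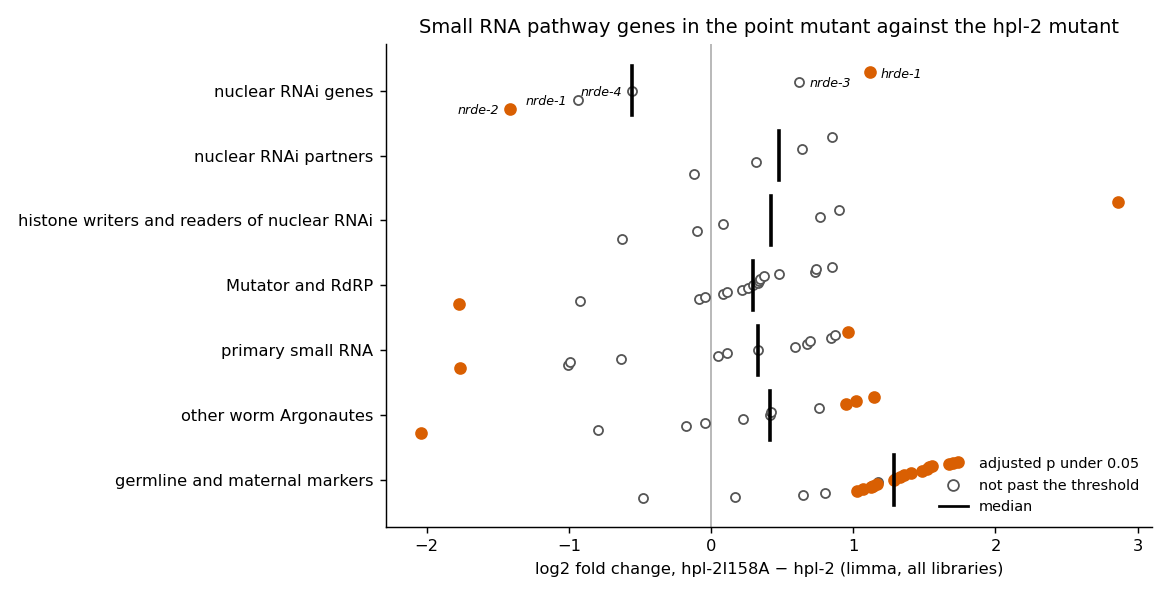
Log2 fold change of hpl-2I158A against hpl-2 (x axis, limma over 12 libraries) for the 5 members and for gene lists (y axis). The lists are small RNA pathway genes, histone writers and readers, and germline and maternal markers. Filled points have an adjusted p under 0.05 and vertical strokes are medians. The members spread from -1.41 to 1.12, while 15 of the 21 germline and maternal markers lie to the right as called genes, beside 7.84% of all tested genes called.

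Directly between hpl-2I158A and hpl-2, 6 of the 53 rose and 3 fell over 12 libraries, beside 7.84% of all tested genes, and 15 rose and 8 fell over 11, beside 29.9%. Over 12 libraries, those that fell were ego-1, rde-1 and sago-2. Those that rose were ergo-1, E01G4.5, the Argonaute genes wago-1, ppw-1 and alg-2, and hpl-2 itself, which is mutated and low in the hpl-2 strain. Of the 4 tested partners of nuclear RNAi, which were hrde-2, enri-1, enri-2 and morc-1, none was called in this comparison over 12 libraries, and enri-1 and hrde-2 rose over 11. In the lin-61 strain, the double mutant and the triple mutant against N2, the list genes called over 12 libraries were C38D9.2 and mutated genes. Over 11 libraries 2 rose and 4 fell in lin-61, beside 6.19% of all tested genes; these were C38D9.2 and E01G4.5, which rose, and dcr-1, ergo-1, met-2 and lin-61, which fell. In the double mutant 6 rose and 4 fell, beside 5.01%. Those that rose were C38D9.2 and the Argonaute genes csr-1, ppw-1, ppw-2, sago-2 and wago-1. Those that fell were the Argonaute genes alg-1 and alg-2 and the strain's mutated genes hpl-2 and lin-61. In the triple mutant 4 rose, among them ppw-1, ppw-2 and sago-2, and 4 fell, among them alg-1 and alg-2, beside 3.46%.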

How the data were processed

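Messenger RNA selected with oligo(dT) beads was sequenced in pairs from directional dUTP libraries, per the labels' protocols. Per the submitters' processing notes, the tools were STAR, featureCounts and DESeq2, with the builds WBcel235 and ce11. No versions and no strand setting were found in these sources. The authors deposited normalised counts (a signal, read counts divided by 1 size factor per library). Within a tolerance of 1e-06, 100% of these values were whole multiples of what 1 read is worth in their library, so whole reads were recovered. The second deposited table holds the authors' p-values, adjusted p-values and log2 fold changes. By their values, its folds put the first-named genotype on top, and they were turned round.

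Gene symbols and positions came from Ensembl 115 by identifier (46817 matched, 87 did not). Levels per kilobase are normalised counts divided by the exonic length of the union of transcripts. The test was limma-trend (limma 3.58.1, R 4.3.3) on log2(normalised count + 1), with genotype as the only term and all 12 libraries in 1 fit. The 14640 genes reaching 10 normalised counts in 2 or more libraries were tested, and calls were made at a Benjamini-Hochberg threshold of 0.05. Residual and prior degrees of freedom came to 6 and 4.73. Because 1 is added before the log, fold changes of low genes are understated. A comparison written A against B is A minus B, and all mutant comparisons with N2 share its 2 libraries. The script was tested on simulated data. Alternatives were a pseudocount of 0.5, no filter, a filter at 50, TMM scaling, scaling to coding genes, edgeR 4.0.16 and DESeq2 1.42.0 on recovered reads, library weights, a replicate block and leaving out each library.

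The plan named edgeR for raw counts and limma for values divided by size factors; the values decided for limma. The 5 members were named throughout, and list genes called against N2 were named by smallest p, at most 4 per comparison; other list genes named beside a count were chosen after their values were seen. For each member the 3 tested coding genes with the highest correlation were named. The members and lists were chosen with earlier results of these data known.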

Additional observations from a re-analysis of the deposited data

Results flagged for a closer look

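The hrde-1 gene was picked out because the effect of the hpl-2 mutation differed with the lin-61 genotype by a test of that difference. The effect was -0.75 on the log2 scale in a wild-type background and 0.75 in a lin-61 background, a difference of 1.50 (SE 0.31, limma adjusted p = 0.0432 over 12 libraries). The call was lost with a replicate block (0.0608), edgeR (0.0602), no filter, TMM scaling, scaling to coding genes and without any single library other than those of the triple mutant, and it held with DESeq2 (0.00532) and over 11 libraries (7.56e-05). Both libraries of the hpl-2 strain lay below the N2 pair, and both double mutant libraries lay above the lin-61 pair. The 21 germline and maternal markers summed to 3425 and 5301 normalised counts for N2, 3977 and 3598 for hpl-2, 5561 and 5534 for lin-61, and 5992 and 6709 for the double mutant, and their part in the hrde-1 result was not tested.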

How the results depend on the processing

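Against counts of called members of 0 in hpl-2, 1 in hpl-2I158A and 0 in the triple mutant (each against N2), 3 for any difference, 1 for the interaction and 8 for all pairs, library weights gave 2 in hpl-2, 2 in hpl-2I158A, 5 for any difference, 2 for the interaction and 25 for all pairs. No filter, TMM scaling and edgeR each gave 0 in hpl-2I158A and 0 for the interaction, and scaling to coding genes gave 0 for the interaction. A filter at 50 gave 2 in hpl-2I158A and 13 pairs, and DESeq2 gave 14 pairs. Leaving out each library in turn gave 0 to 2 in hpl-2, 0 to 3 in hpl-2I158A, 0 to 3 in the triple mutant, 0 to 5 for any difference, 0 to 2 for the interaction and 2 to 38 pairs. The highest of these counts came without a triple mutant library. Comparisons between other genotypes kept their fold changes in those fits, such as -0.71 for nrde-3 in hpl-2 against N2. The triple mutant libraries enter such tests through the spread that the fit shares. The share of all tested genes called was counted only over 12 libraries and without triple mutant replicate 2. Counts under the other settings thus have no share beside them. The causes were not tested.

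Replicate numbers did not pair the samples: r between same-numbered deviations was -0.0772 to 0.156 over 15 pairs of genotypes, with 1 over 0.1. With a replicate block the interaction count went from 1 to 0, and the other counts of called members given here did not move.

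Log2 fold changes from N2 whose sign reversed when a library was left out were those of nrde-1 in lin-61 (-0.40 to 0.30) and in the triple mutant (-0.22 to 0.84), of nrde-3 in the triple mutant (-0.28 to 0.33) and of nrde-4 in lin-61 (-0.043 to 0.070). With scaling to coding genes nrde-1 in lin-61 went to 0.085 and nrde-4 in hpl-2 to 0.13. Of 693 recomputed single values, 614 kept direction and side of the threshold, 54 lost and 15 gained a call and 10 reversed. The members had 111 reads or more in each library, and the part of depth in their spread was not tested.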
